A study of Homo sapiens with 24 samples.

Results

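The transcripts examined were those of the MYC, MAX and MXD network, which is 10 of the 58051 gene identifiers in the files: *MYC*, *MYCL*, *MYCN*, *MAX*, *MXD1*, *MXD3*, *MXD4*, *MXI1*, *MNT* and *MLX*. The members were chosen by name, with earlier results of these data known. They were measured by RNA-seq in HT29, HCT116 and SW480, which are human colorectal carcinoma cell lines. HT29 and SW480 carry inactivating *APC* mutations and HCT116 an activating *CTNNB1* mutation, so that in each line the WNT/β-CATENIN pathway is active. For each line there were 4 libraries of *CTNNB1* wild-type (WT) clones and 4 of *CTNNB1* knock-out (KO) clones, 24 libraries in all. A KO clone had lost exon 7 of both *CTNNB1* alleles through CRISPR/Cas9. The WT clones had also been exposed to CRISPR/Cas9 and cloned in the same way, but kept the wild-type sequence. Neither genotype received any other agent. Each genotype in a line was represented by 2 clones that grew from sorted single cells, and each clone by rounds A and B. The clones were WT 11, WT 40, KO 28 and KO 38 in HT29, WT 4, WT 6, KO 44 and KO 47 in HCT116, and WT 4, WT 5, KO 17 and KO 21 in SW480. With 2 clones per genotype, a difference that every KO clone shares and a difference that single clones acquired cannot always be told apart.

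MYC, MYCL and MYCN are related transcription factors that bind the DNA sequence called E-box as dimers with MAX and mostly activate genes of growth, ribosome production and metabolism. MXD1, MXD3, MXD4, MXI1 (also called MXD2) and MNT compete for the same partner, recruit SIN3 corepressors and histone deacetylases, and repress at the same sites, while MLX is an alternative partner that links part of this group to the glucose sensors MLXIP and MLXIPL. *MYC* is a long-known target of β-CATENIN and TCF/LEF factors in colorectal cancer cells, and *MXD* genes are associated with withdrawal from the cell cycle and with differentiation.

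In the GRCh37 build used for alignment, *MXD4* (ENSG00000123933), whose transcript moved most, lies on chromosome 4 at 2249159 to 2263836 on the minus strand and has 6 exons. The library kit keeps no strand, so that reads over exons shared with a neighbouring gene may not separate the genes. For *MXD3* 43.7% of the exon bases are shared with *PRELID1* or *RAB24*, for *MLX* 18.2% with *PSMC3IP*, for *MAX* 16.1% with *FNTB* and other neighbours, and for *MXD4* 0%.

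The network acts on E-boxes, and some of its own members carry one in front of their start. RefSeq promoter windows on GRCh38.p14, which run from 250 bases before to 50 after the start, were matched for 9 of the members (12 windows). No window was available for *MYC*, so that its promoter was not searched. The E-box CACGTG, which reads the same on both strands, was in 3 of these 12 windows, namely those of *MXD4*, *MNT* and *MLX*, and in 7.26% of all 35116 windows. The TCF/LEF core CTTTGAT, searched on both strands, was in 0 of the 12 and in 2.62% of all windows. The stretches of 60 bases are shown because these are the letters that MAX and MLX dimers read, with the E-box in capitals. They lie before the start, at chr4:2262300-2262359 on the minus strand for *MXD4*, at chr17:2401221-2401280 on the minus strand for *MNT*, and at chr17:42567023-42567082 on the plus strand for *MLX*.
MXD4: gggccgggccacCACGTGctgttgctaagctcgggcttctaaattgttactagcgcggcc
MNT: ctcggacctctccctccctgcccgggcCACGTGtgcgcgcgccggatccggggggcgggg
MLX: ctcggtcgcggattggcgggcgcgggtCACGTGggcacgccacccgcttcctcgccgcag
The E-box begins 238 bases before the start in *MXD4*, 193 in *MNT* and 50 in *MLX*. A match is a description of the letters and says nothing of binding in these cells.

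Libraries held 22297049 to 29068378 reads on genes. *CTNNB1* fell to 4.98% of the WT mean in HT29, 1.83% in HCT116 and 2.18% in SW480, so that each library matched its label, and *AXIN2*, a WNT target, fell to 11.7%, 2.43% and 3.82%. Of 8 markers of colorectal epithelium, 5 to 8 reached 10 normalized counts in a library of each group. Those that stayed below 10 were *CDX2* in HT29 WT, *VIL1* and *LGALS4* in HCT116 (with *KRT20* in its KO libraries), and *KRT20* and *LGALS4* in SW480, where *CDH1* was also low (20.2 to 85.9). Several markers differed between genotypes without overlap of the libraries. The KO mean was 450% of WT for *KRT20* and 380% for *LGALS4* in HT29, 138% for *EPCAM*, 224% for *CDH1*, 71.9% for *CDX2* and 0.621% for *KRT20* in HCT116, and 49.7% for *EPCAM* and 9.69% for *CDX2* in SW480. Among the other cell types, *COL1A1* was at 12.2 to 22.5 normalized counts in HT29 WT and 26.2 to 85.4 in its KO libraries. The leukocyte markers *PTPRC* and *CD3E* summed to at most 8.56 normalized counts. In SW480 the endothelial marker *VWF* was at 9.65 to 27.4 normalized counts in WT and 114 to 234 in KO libraries, and 3 fibroblast markers summed to 149 to 397 in WT and 116 to 142 in KO libraries, and the part of these markers in the results was not tested. The libraries of HT29 KO 38 stood apart from each other, since over genes the log2 difference of round A from round B had an SD of 0.926 in this clone and 0.359 to 0.527 in the others, and the KO against WT comparison of HT29 was therefore repeated without KO 38B and WT 40B, which had the fewest reads of the line.

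Values are normalized counts, which are gene counts divided by the size factor of a library. Differences are log2 fold changes with their SE from limma on log2 of the normalized count plus 1, which understates the change of low transcripts. A transcript was called as changed at an adjusted p under 0.05, where the adjustment ran over all tested genes. The first question was whether members of the network differed between KO and WT clones of a line. All 9 members with at least 10 normalized counts in at least 4 libraries were tested in each line, while *MYCN* had at most 5 reads in any library and was not tested.

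The order of the lines in called members was also their order in the share of all genes called. In SW480 6 of 9 tested members were called, 4 lower and 2 higher, where 48.1% of all 16325 tested genes were called (26.1% higher and 22.1% lower). In HCT116 only *MYC* was called of the 9 members, against 14.0% of all tested genes. In HT29 0 of 9 were called by limma against 2.56% of all tested genes. An unadjusted p under 0.05 was found for 0 of 9 members and for 2417 of all 14921 tested genes. DESeq2 and edgeR also called 0 members in HT29, as did limma without KO 38B and WT 40B, where 1.56% of all genes were called. In that comparison the log2 fold changes were 0.12 for *MAX*, 0.31 for *MXD1*, 0.14 for *MXD3*, 0.07 for *MXI1*, 0.59 for *MXD4*, 0.65 for *MNT*, 0.19 for *MLX* and 0.75 for *MYCL*, of which the lowest adjusted p was 0.217 for *MNT*.

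*MYC* (ENSG00000136997, plus strand, 3 exons in its canonical transcript) was lower in the KO clones of SW480 and HCT116. In SW480 the WT libraries held 6469 and 6387 normalized counts (WT 4, rounds A and B) and 5532 and 6045 (WT 5), and the KO libraries 3228 and 3643 (KO 17) and 3400 and 3758 (KO 21). The groups did not overlap, and both KO clones lay at the same level. *MYC* thus fell to 57.4% of WT (log2 fold change -0.80, SE 0.08, limma adjusted p = 1.1e-05), a call that held in all 22 alternative analyses.

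In HCT116 the WT libraries held 10209 and 10627 normalized counts of *MYC* (WT 4) and 14782 and 13919 (WT 6), and the KO libraries 7436 and 7943 (KO 44) and 9927 and 9825 (KO 47). The groups did not overlap, but each genotype split by clone. *MYC* was at 70.9% of WT (log2 fold change -0.49, SE 0.15, limma adjusted p = 0.0449), and the call was lost with round as replicate block (adjusted p = 0.0515), which applies here because rounds paired the libraries of this line. Of 22 alternatives 12 made the call, with adjusted p from 0.0072 to 0.361, the highest without clone WT 6. The call was lost without KO 44A (0.121), KO 44B (0.114), WT 4B (0.0553), WT 6A (0.135) or WT 6B (0.119), without clone KO 44 (0.299), with reads summed per clone (0.242) and with clone as random effect (0.0824), each as an adjusted p. The difference between the WT clones was of similar size, since *MYC* was higher in WT 6 than in WT 4 by 0.46 on the log2 scale (limma adjusted p = 0.0459, and 0.0611 with edgeR and TMM, the highest of its alternatives).

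In HT29 the WT libraries held 6617 and 6181 normalized counts of *MYC* (WT 11) and 7664 and 6375 (WT 40), and the KO libraries 6123 and 6094 (KO 28) and 8520 and 5046 (KO 38). The KO range enclosed the WT range, and the highest and the lowest library both belonged to KO 38. The KO mean was 96.1% of WT (log2 fold change -0.08, SE 0.18, adjusted p = 0.850), and the log2 fold change was 0.0068 without KO 38B and WT 40B (adjusted p = 0.990). By qRT-PCR against *GAPDH* the paper reports higher *MYC* in HT29 KO clones. For HCT116 and SW480 it reports a small decline that was not statistically significant. The RNA-seq values differ from that in HT29 and in the SW480 call, and the reason was not tested.

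The lesser paralogue *MYCL* (chromosome 1, 40361100 to 40367928, minus strand) moved further than *MYC* in SW480. The SW480 WT libraries held 143 and 131 normalized counts (WT 4) and 221 and 259 (WT 5), and the KO libraries 48.9 and 51.4 (KO 17) and 67.2 and 55.7 (KO 21). *MYCL* fell to 29.6% of WT there (log2 fold change -1.69, SE 0.23, adjusted p = 1.6e-04), and the lowest WT library was above every KO library. In HCT116 the WT libraries (91.9 to 145) and the KO libraries (62.8 to 116) overlapped (log2 fold change -0.63, SE 0.24, adjusted p = 0.104). In HT29 they overlapped too, at 35.5 to 76.4 in WT clones and 61.6 to 123 in KO clones (log2 fold change 0.74, SE 0.34, adjusted p = 0.331). *MYCN* was at 0 to 5 reads in all 24 libraries, so that no level could be given above the floor of 3 reads in any but 1 library, and a fold change was not computed.

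**Figure D1:**
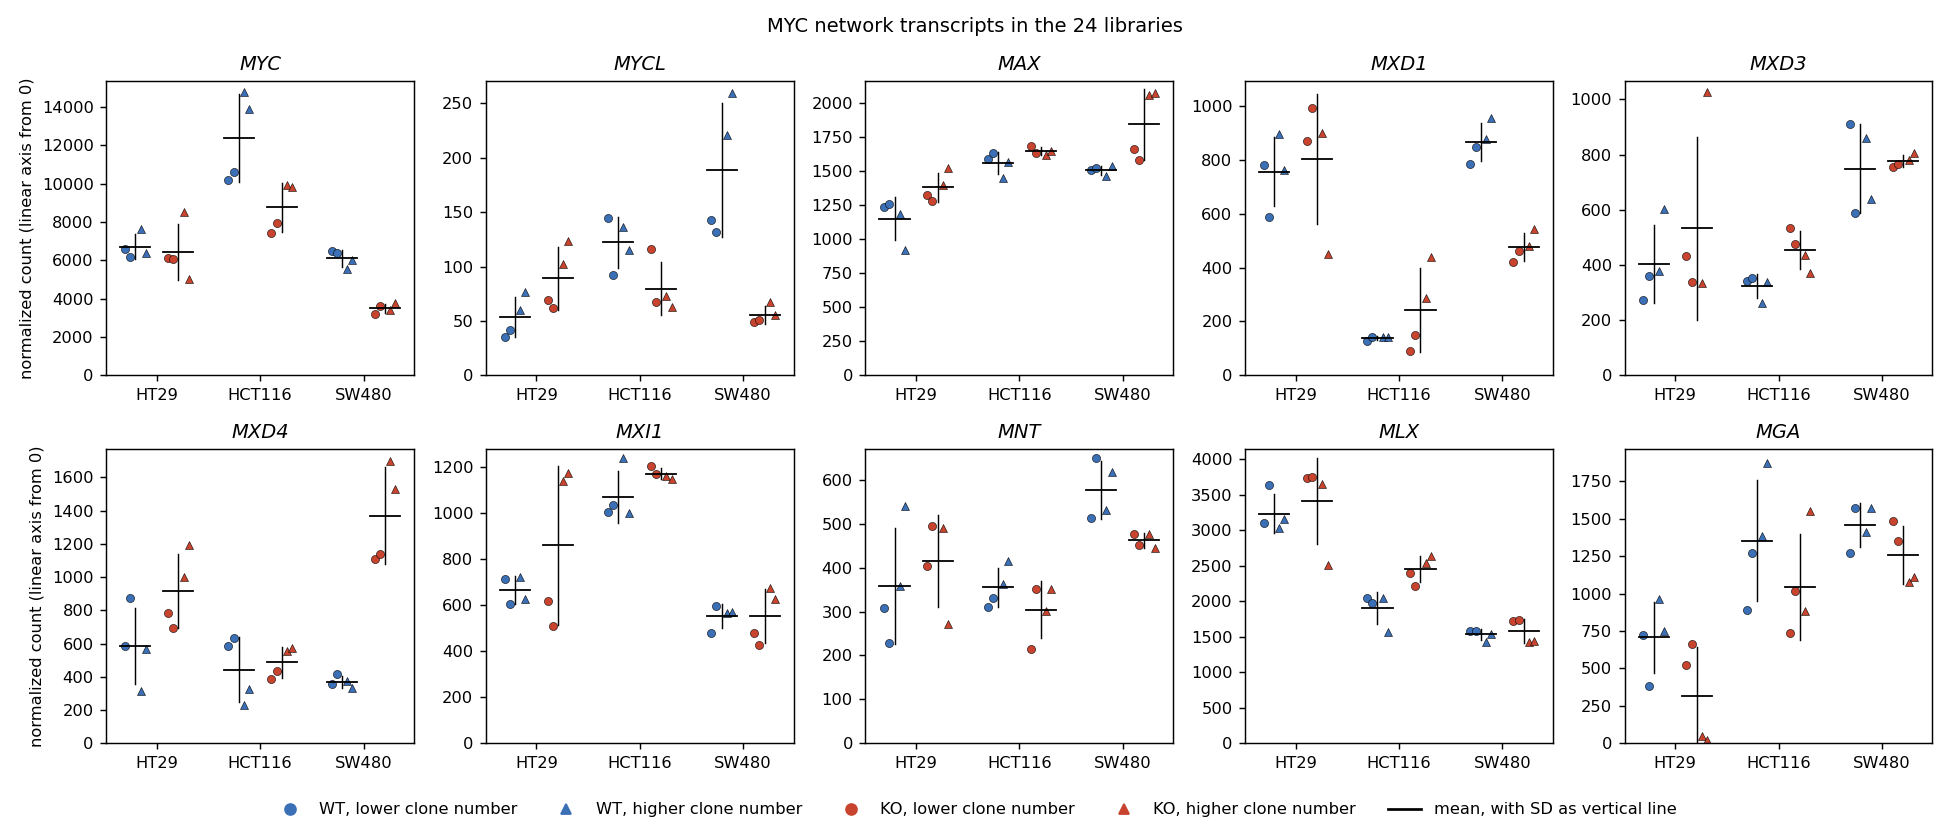
Normalized counts (linear axes from 0) of the 9 tested members and of *MGA* in the 24 libraries, by line and genotype, with WT in blue and KO in red; circles and triangles stand for the clones with the lower and the higher number, horizontal lines for the mean and vertical lines for the SD of 4 libraries. In SW480 *MXD4* lies at 332 to 416 in WT and 1109 to 1698 in KO libraries, and in HT29 *MGA* is at 52.2 and 19.4 in the KO 38 libraries only.

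*MAX*, the obligatory partner of MYC, differed little. In SW480 the WT libraries held 1507 and 1519 normalized counts (WT 4) and 1460 and 1538 (WT 5), and the KO libraries 1660 and 1580 (KO 17) and 2059 and 2072 (KO 21). The rise was larger in KO 21 than in KO 17 (log2 difference 0.35, adjusted p = 0.0020). Over both clones *MAX* was called higher (log2 fold change 0.28, SE 0.10, adjusted p = 0.0336) in the main analysis and in 10 of 22 alternatives, with adjusted p from 3.3e-04 to 0.221, and without clone KO 21 the log2 fold change was 0.10. The call was lost without KO 21A (0.0810), KO 21B (0.0955) or any single WT library (0.0584 to 0.0794), and without clone KO 21 (0.221), WT 4 (0.132) or WT 5 (0.137), each as an adjusted p. In HCT116 the difference was 0.08 (SE 0.09, adjusted p = 0.606). In HT29 all 4 KO libraries (1281 to 1525) lay above all 4 WT libraries (919 to 1259), with a log2 fold change of 0.27 (SE 0.16) that did not pass the test (adjusted p = 0.418).

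Among the antagonists, *MXD4* showed the largest difference of the network. The SW480 WT libraries held 357 and 416 normalized counts (WT 4) and 375 and 332 (WT 5), and the KO libraries 1109 and 1138 (KO 17) and 1698 and 1532 (KO 21). *MXD4* rose to 370% of WT (log2 fold change 1.86, SE 0.14, adjusted p = 2.7e-06). The call was made in 22 of 22 alternatives, and KO 21 lay above KO 17 by 0.52 on the log2 scale (adjusted p = 0.0014).

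In the other lines *MXD4* did not pass the test. In HT29 the WT libraries held 314 to 872 and the KO libraries 693 to 1190 (log2 fold change 0.71, SE 0.31, adjusted p = 0.309, unadjusted p = 0.0502). In HCT116 the WT libraries split by clone into 584 and 633 (WT 4) and 228 and 327 (WT 6), and the KO libraries (384 to 571) lay between them (log2 fold change 0.24, SE 0.30, adjusted p = 0.650).

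*MXD1*, the first described antagonist, moved the opposite way in SW480. The WT libraries held 783 and 849 normalized counts (WT 4) and 876 and 955 (WT 5), and the KO libraries 420 and 460 (KO 17) and 482 and 541 (KO 21). *MXD1* fell to 54.9% of WT (log2 fold change -0.86, SE 0.10, adjusted p = 4.5e-05, called in 22 of 22 alternatives), nearly the same proportion as *MYC*. In HCT116 it was at 128, 142, 144 and 142 in the WT libraries, at 92.4 and 151 in KO 44 and at 287 and 440 in KO 47. Both KO 47 libraries lay above the WT range, and of KO 44 1 library lay below it and 1 just above it. KO against WT did not pass the test (log2 fold change 0.56, SE 0.40, adjusted p = 0.384). In HT29 the groups overlapped, at 586 to 895 in WT and 449 to 992 in KO libraries (log2 fold change 0.04, SE 0.27, adjusted p = 0.956).

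*MNT*, a broadly expressed antagonist, showed a small decrease in SW480, from 512, 649, 531 and 619 normalized counts in the WT libraries to 477, 452, 476 and 444 in the KO libraries. The groups did not overlap and the KO mean was 80.1% of WT (log2 fold change -0.31, SE 0.10, adjusted p = 0.0206), a call made in 14 of 22 alternatives with adjusted p from 0.0040 to 0.127. It was lost without KO 21B (0.0528), WT 4B (0.0664) or WT 5B (0.0594), and without clone KO 21 (0.0514), WT 4 (0.0587) or WT 5 (0.0728), each as an adjusted p. In HCT116 (-0.24, SE 0.18, adjusted p = 0.411) and HT29 (0.24, SE 0.30, adjusted p = 0.715) the log2 fold changes of *MNT* did not pass the test, and in HT29 the value ran from -0.12 to 0.65 over the alternatives, with the highest without KO 38B and WT 40B (adjusted p = 0.217, the lowest of a range up to 0.947).

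*MXI1* and *MXD3* were not called in any line. In SW480 *MXI1* had a log2 fold change of -0.02 (SE 0.15, adjusted p = 0.919), but its KO clones lay on opposite sides of WT, at 479 and 428 (KO 17) and 672 and 628 (KO 21) against 479 to 596 in WT. *MXD3* in HCT116 had all KO libraries (370 to 533) above all WT libraries (261 to 355) with a log2 fold change of 0.48 (SE 0.16, adjusted p = 0.0618), but much of its exon sequence is shared with neighbours. *MXD3* was higher in the libraries of HT29 with the fewest reads, at 1026 in KO 38B and 604 in WT 40B against 273 to 434 in the other 6 HT29 libraries, and the part of these libraries in its level was not tested.

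*MLX* was high in each line and nearly level between genotypes in SW480 (log2 fold change 0.04, SE 0.08) and HT29 (0.06, SE 0.17). In HCT116 the WT libraries held 2043 and 1968 (WT 4) and 2037 and 1564 (WT 6) normalized counts, and the KO libraries 2398 and 2216 (KO 44) and 2540 and 2638 (KO 47). The groups did not overlap, and the log2 fold change of 0.37 (SE 0.11) just missed the threshold (adjusted p = 0.0526) but passed it with round as replicate block (adjusted p = 0.0434), within a range of 0.0233 to 0.301 over the alternatives for *MLX*.

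**Figure D2:**
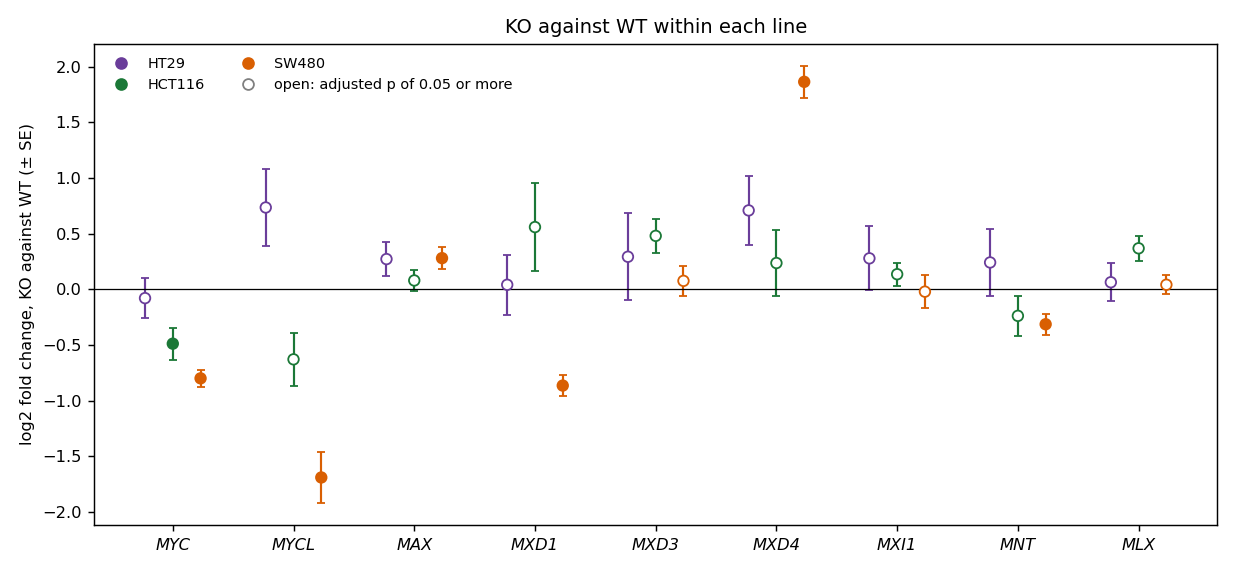
Log2 fold change of KO against WT (± SE, 4 against 4 libraries) for the 9 tested members in HT29, HCT116 and SW480, with filled points for an adjusted p under 0.05. In SW480 *MXD4* is at 1.86 and *MYCL* at -1.69, and in HT29 all points are open.

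Whether the KO effect itself differed between lines was tested as a difference of differences over the 24 libraries. Between HT29 and SW480 2 of 9 members were called, against 15.8% of all 18609 tested genes. The KO effect on *MYC* was higher in HT29 than in SW480 by 0.72 (adjusted p = 0.0177, range over alternatives 0.0042 to 0.177, the highest with reads summed per clone) and that on *MYCL* by 2.43 (adjusted p = 1.4e-04, at most 0.0483 in any alternative). These comparisons use the same SW480 and HT29 libraries as the tests within lines.

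Between HT29 and HCT116 1 of 9 members was called, against 7.25% of all genes, and it was *MYCL* with a difference of 1.36 (adjusted p = 0.0404, range over alternatives 0.0168 to 0.447). That call was lost without any 1 of HCT116 KO 44B, KO 47A, KO 47B, WT 4A, WT 6A or WT 6B, or HT29 KO 38A, KO 38B, WT 11A or WT 11B (adjusted p from 0.0590 to 0.0842). For *MYC* this difference was 0.41 (adjusted p = 0.259), so that HT29 and HCT116 were not shown to differ in the effect on *MYC*. Between HCT116 and SW480 2 of 9 were called, against 13.2% of all genes. The effect on *MXD1* was higher in HCT116 by 1.42 (adjusted p = 0.0351, range 0.0018 to 0.287) and that on *MXD4* lower (log2 difference -1.63, adjusted p = 0.0090, range 6.0e-04 to 0.194). For *MXD1* the call was lost without any 1 of HCT116 KO 47A, KO 47B or the 4 WT libraries, or SW480 KO 17A, KO 17B, KO 21A, WT 4B, WT 5A or WT 5B (adjusted p from 0.0524 to 0.0778). For *MYC* the difference between HCT116 and SW480 was 0.31 (adjusted p = 0.381).

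The KO clones were then compared one by one with both WT clones of their line, with the error taken from rounds A and B, so that these tests describe the clones and not the genotype. In SW480 7 of 9 members were called in KO 17 and 7 of 9 in KO 21, against 54.7% and 59.8% of all genes. *MYC* (-0.83 and -0.77), *MYCL* (-1.83 and -1.55), *MXD1* (-0.97 and -0.76), *MNT* (-0.31 and -0.32) and *MXD4* (1.60 and 2.13) moved in the same direction in KO 17 and KO 21. *MXI1* was called in opposite directions, -0.28 in KO 17 (adjusted p = 0.0242) and 0.24 in KO 21 (adjusted p = 0.0473).

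Between KO 21 and KO 17 of SW480 4 of 9 members were called, against 28.0% of all genes, with *MAX*, *MXD4* and *MXI1* higher and *MLX* lower in KO 21. Between the WT clones 1 of 9 was called, against 8.88% of all genes, and it was *MYCL*, higher in WT 5 by 0.80 (adjusted p = 0.0146).

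In HCT116 2 of 9 members were called in KO 44 and 3 of 9 in KO 47, against 26.2% and 16.2% of all genes. *MYC* was lower in both, with a log2 fold change of -0.67 in KO 44 (adjusted p = 4.6e-04) and -0.31 in KO 47 (adjusted p = 0.0410). *MXD3* was higher in KO 44 (0.64, adjusted p = 0.0108), and *MXD1* (1.35, adjusted p = 0.0034) and *MLX* (0.45, adjusted p = 0.0282) in KO 47. *MXD1* also differed between the KO clones, by 1.58 (adjusted p = 0.0069), the only member called there, against 7.16% of all genes. With round as replicate block *MYC* (0.36, adjusted p = 0.0087) and *MXD4* (0.46, adjusted p = 0.0265) were called there too. Between the WT clones of HCT116 *MYC* and *MXD4* (-1.15 in WT 6 against WT 4, adjusted p = 0.0095) were called, 2 of 9 against 2.61% of all genes.

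In HT29 the KO clones were unlike each other. KO 28 had 0 of 9 members called by limma and 0 with an unadjusted p under 0.05, against 11.5% of all genes called, while KO 38 had 3 of 9, against 21.4%. In KO 38 *MYCL* (1.12, adjusted p = 0.0170), *MXD4* (0.99, adjusted p = 0.0388) and *MXI1* (0.80, adjusted p = 0.0158) were higher than in both WT clones. *MYCL* was at 102 and 123 normalized counts in KO 38 and *MXD4* at 1002 and 1190 (rounds A and B). *MXI1* is the clearest, with 1137 and 1175 normalized counts in KO 38 against 616 and 511 in KO 28 and 603 to 720 in the WT libraries, and it differed between the KO clones by 1.04 (adjusted p = 0.0115), 1 of 9 members against 16.0% of all genes. Between WT 40 and WT 11 limma called 0 of 9 members, against 9.02% of all genes. An unadjusted p under 0.05 was found for 2 members and for 3206 of all 14921 tested genes.

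The widest difference between clones among the network factors compared was in MGA, which binds MAX and serves as scaffold of a repressive Polycomb complex. *MGA* (chromosome 15, 41913332 to 42065279, plus strand, 24 exons) was at 52.2 and 19.4 normalized counts in HT29 KO 38, at 523 and 663 in KO 28 and at 726, 386, 964 and 752 in the WT libraries. Both libraries of KO 38 lay below each of the other 6 HT29 libraries and below all libraries of HCT116 and SW480, where *MGA* ranged from 736 to 1872. *MGA* was lower in KO 38 than in KO 28 (log2 fold change -4.16, adjusted p = 0.0011) and than in WT (-4.35, adjusted p = 3.4e-04), while KO 28 did not differ from WT beyond the test (-0.19, adjusted p = 0.850). With the decrease in 1 of 2 KO clones, the comparison of genotypes did not pass the test (-2.27, adjusted p = 0.326).

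**Figure D3:**
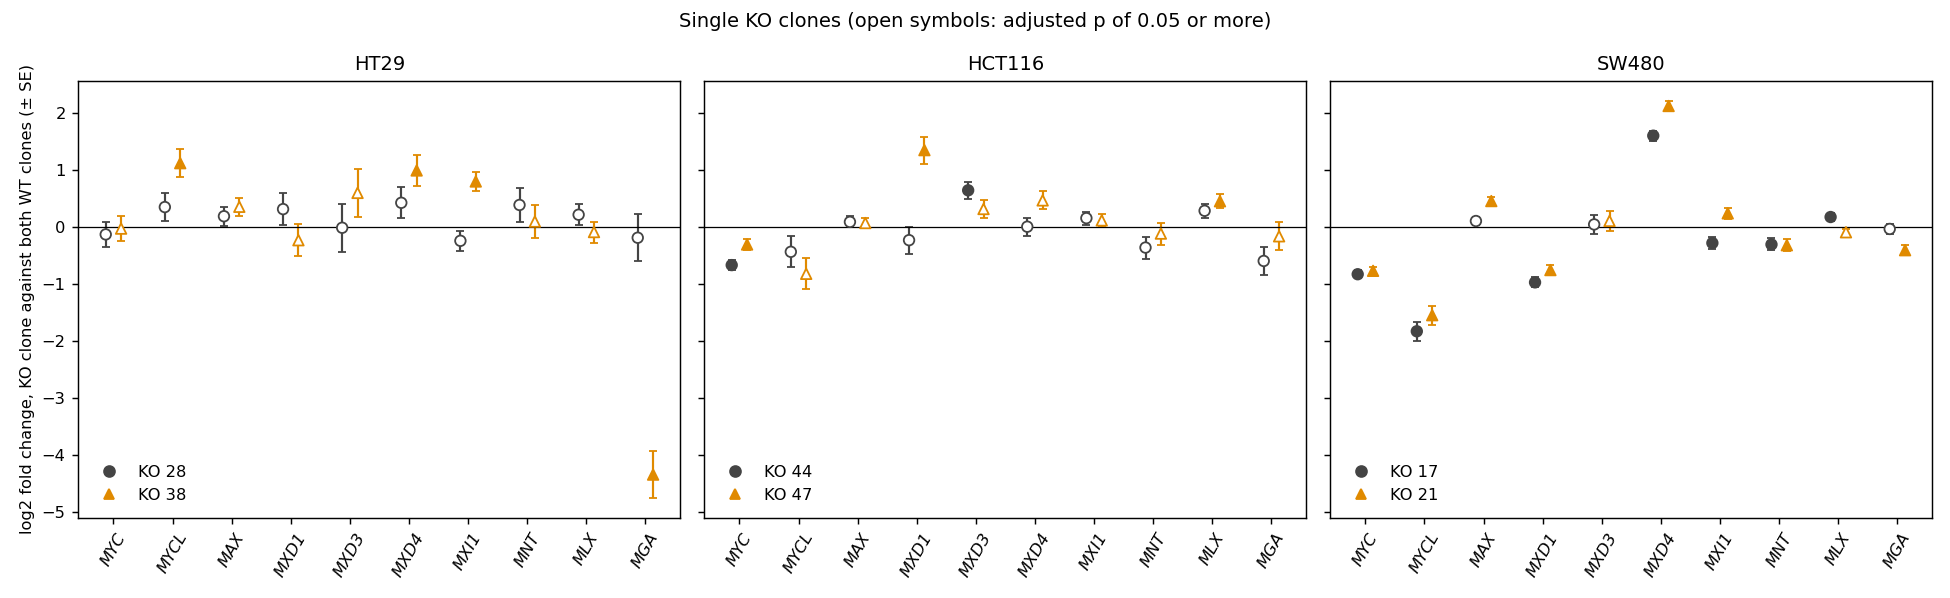
Log2 fold change (± SE) of each KO clone against both WT clones of its line for the 9 tested members and *MGA*, with filled symbols for an adjusted p under 0.05. In SW480 the clones lie close together for *MYC* and *MYCL*, in HCT116 they part at *MXD1* (-0.23 in KO 44 and 1.35 in KO 47), and in HT29 *MGA* is at -4.35 in KO 38.

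The WT clones were next compared across lines, first for each member and then between members. Of 9 tested members 6 were called between HT29 and HCT116, 6 between HT29 and SW480 and 6 between HCT116 and SW480, near the shares of all 17205 tested genes of 65.4%, 66.8% and 67.5%. *MYC* was highest in HCT116, at 12384 ± 2304 normalized counts (SD, n = 4) against 6709 ± 661 in HT29 and 6108 ± 426 in SW480. HCT116 exceeded HT29 by 0.87 (log2 fold change of HT29 against HCT116 -0.87, limma adjusted p = 3.1e-05) and SW480 by 1.00 (adjusted p = 7.5e-06), while HT29 and SW480 did not differ beyond the spread (0.13, adjusted p = 0.360).

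*MXD1* had the widest range between lines. The HCT116 WT libraries held 139 ± 7.65 normalized counts (SD, n = 4), against 755 ± 128 in HT29 and 866 ± 71.2 in SW480, a log2 difference of 2.42 between HT29 and HCT116 (adjusted p = 2.2e-09) and of -2.63 between HCT116 and SW480 (adjusted p = 9.8e-10). The line with the most *MYC* transcript thus had the least *MXD1* transcript. *MXI1* was highest in HCT116 (1069 ± 113, against 666 ± 60.3 in HT29 and 552 ± 50.7 in SW480), and HCT116 differed from each of the others (adjusted p = 1.1e-04 and 4.7e-06).

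*MYCL* was lowest in HT29 (53.4 ± 18.6), and HCT116 (122 ± 23.8) and SW480 (189 ± 61.8) did not differ beyond the test (-0.59, adjusted p = 0.0822). *MXD3* was highest in SW480 (749 ± 160), above HT29 (log2 difference of HT29 against SW480 -0.93, adjusted p = 0.0022) and HCT116 (-1.19, adjusted p = 3.0e-04). *MNT* was also higher in SW480 than in HT29 (-0.75, adjusted p = 0.0065) and HCT116 (-0.70, adjusted p = 0.0096). *MLX* was highest in HT29 (3227 ± 275), followed by HCT116 (1903 ± 229) and SW480 (1531 ± 73.7), and each step passed the test. *MAX* was lower in HT29 than in HCT116 (-0.45, adjusted p = 0.0018) and SW480 (-0.40, adjusted p = 0.0039). *MXD4* was not called between any pair of lines, with WT means from 370 to 583.

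*MLXIPL*, which encodes the glucose-responsive partner of MLX, set the lines apart most among the further factors, at 505 ± 33.9 normalized counts in HCT116, 63.8 ± 9.62 in SW480 and 9.23 ± 2.89 in HT29 (SD, n = 4). It did not differ between KO and WT by the test in any line, with adjusted p from 0.381 to 0.740.

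Levels of different members were compared as normalized counts per kb of the canonical transcript. Reads were counted per gene, so that the order depends on the length chosen. The canonical transcript has 1067 bases for *MXD3* and 5549 for *MXD1*, whereas all annotated exons together cover 4743 and 6351. In SW480 WT libraries *MXD1* (866) was above *MXD3* (749) in normalized counts, but below it per kb. Other lengths were not tried. In WT libraries *MYC* ranked first in each line, with means of 3328 per kb in HCT116, 1803 in HT29 and 1642 in SW480. In HT29 it was followed by *MLX* (1368 per kb), *MAX* (573), *MXD3* (379), *MXI1* (192), *MXD4* (151), *MXD1* (136), *MNT* (72.7) and *MYCL* (15.2). The ranges of *MAX* and *MXD3* overlapped there, as did those of *MXI1* and *MXD4*, *MXD4* and *MXD1*, and *MXD1* and *MNT*.

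In HCT116 WT the order per kb was *MYC*, *MLX* (806), *MAX* (776), *MXI1* (308), *MXD3* (304), *MXD4* (115), *MNT* (72.1), *MYCL* (34.7) and *MXD1* (25.0), and the ranges overlapped between *MLX* and *MAX*, *MXI1* and *MXD3*, and *MXD4* and *MNT*. In SW480 WT it was *MYC*, *MAX* (749), *MXD3* (702), *MLX* (649), *MXI1* (159), *MXD1* (156), *MNT* (117), *MXD4* (95.6) and *MYCL* (53.5), with overlapping ranges for *MAX* and *MXD3*, *MXD3* and *MLX*, *MXI1* and *MXD1*, and *MNT* and *MXD4*. *MXD4* was thus rank 8, not apart from *MNT* at rank 7, of the members in SW480 WT, and in SW480 KO libraries it was rank 5 at 354 per kb, above *MXI1* (159), *MNT* (93.9) and *MXD1* (85.8) with no overlap of ranges.

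**Figure D4:**
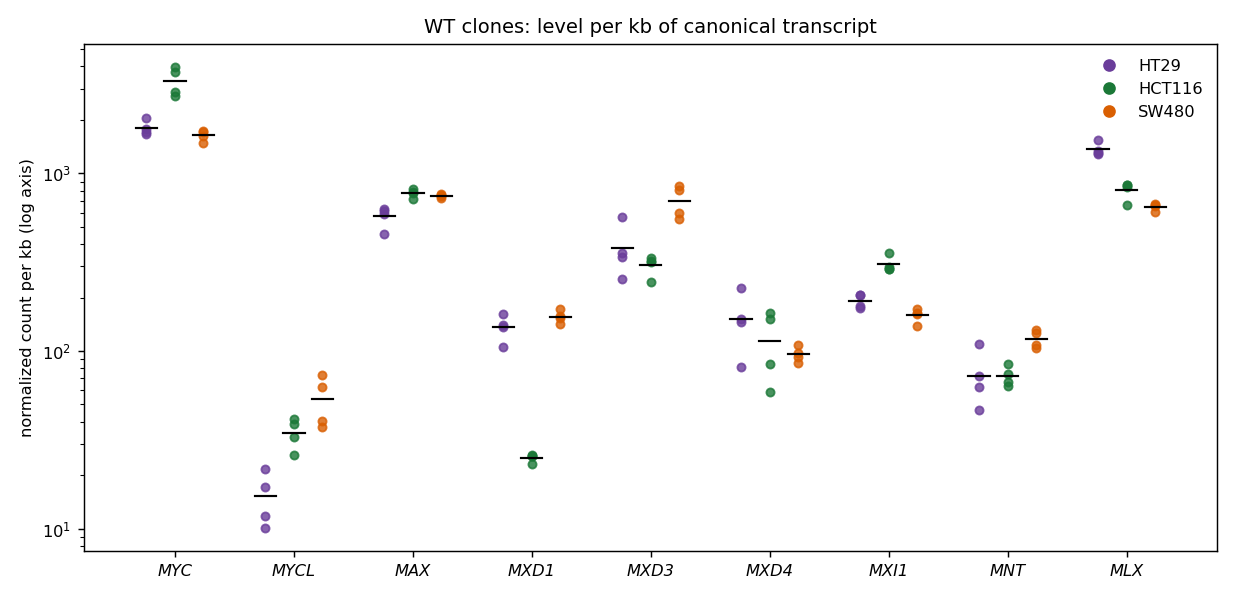
Normalized counts per kb of canonical transcript (log axis) of the 9 tested members in the WT libraries, 4 points per line, with the mean as a black bar. *MXD1* is near 25.0 per kb in HCT116 and at 136 and 156 in HT29 and SW480, and *MYC* is the most abundant member in each line.

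As a single description of the balance, the *MYC* level per kb was divided by the summed levels per kb of *MXD1*, *MXD3*, *MXD4*, *MXI1* and *MNT*. In SW480 this ratio was 1.35 ± 0.179 in WT and 0.667 ± 0.0643 in KO libraries (SD, n = 4), with ranges of 1.12 to 1.54 and 0.590 to 0.748 that did not overlap. In HCT116 it was 4.09 ± 1.02 in WT (3.22 to 5.23) and 2.38 ± 0.365 in KO libraries (1.99 to 2.71), again without overlap. The HCT116 WT clones were apart, however, at 3.24 and 3.22 in WT 4 and 5.23 and 4.67 in WT 6, and KO 47 was at 2.67 and 2.71. In HT29 it was 1.98 ± 0.371 in WT (1.50 to 2.35) and 1.53 ± 0.524 in KO libraries (0.778 to 1.97), which overlapped. The ratio is of transcripts and not of proteins. It depends much on *MXD3* with its shared exons, and on the short canonical transcript by which *MXD3* was divided. *MXD3* made up 702 of the sum of 1230 per kb in SW480 WT, 379 of 930 in HT29 WT and 304 of 823 in HCT116 WT. In HT29 KO 38B, where the ratio was 0.778, *MXD3* made up 961 of 1743.

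The genes that work with or under the network were counted from lists of textbook members. Of 25 matched MYC-induced genes, 24 were tested in each line. In SW480 16 were lower and 2 higher in KO clones, where 22.1% of all tested genes were lower and 26.1% higher, with a median log2 fold change of -0.34 against -0.0042 over all tested genes. *EIF4A1*, counted among the 16, was low, at 85.9 to 107 normalized counts in WT and 51.8 to 84.7 in KO libraries. Sharing of exons with neighbours was not looked up for the genes of these lists. The lower genes with the largest change were *RCC1* (-0.80, adjusted p = 2.6e-04), which acts in nuclear transport, *ODC1* (-0.69, adjusted p = 1.7e-04), the rate-limiting enzyme of polyamine synthesis, and *NOP56* (-0.68, adjusted p = 0.0025), a nucleolar protein of ribosome assembly. *ODC1* went from 18198, 15750, 14323 and 15595 normalized counts in WT to 8816, 9886, 9495 and 11344 in KO libraries, without overlap. The higher genes were *CCND2* (2.10, adjusted p = 0.0098), which encodes a D-type cyclin, and *LDHA* (0.36, adjusted p = 0.0049) of glycolysis. *CCND2* split by WT clone, at 72.8 and 95.6 normalized counts in WT 4 and 299 and 418 in WT 5, against 623 to 895 in KO libraries. The call of *CCND2* was lost without clone KO 17 (0.113) or KO 21 (0.0842) and that of *LDHA* without clone WT 5 (0.0544), each as an adjusted p, where the alternatives reached up to 0.113 and 0.109.

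In HCT116 4 of 24 MYC-induced genes were lower and 0 higher, where 5.93% of all tested genes were lower and 8.05% higher, with a median of -0.19 against -0.01 over all genes. They were *PRMT5* (-0.81, adjusted p = 0.0439), *ODC1* (-0.60, adjusted p = 0.0241) and the nucleotide synthesis genes *PPAT* (-0.57, adjusted p = 0.0139) and *CAD* (-0.54, adjusted p = 0.0403). *PRMT5* was mostly lower in 1 clone, at 1667 and 1635 normalized counts in KO 44 and 3109 and 3478 in KO 47 against 3855 to 4513 in WT libraries, and it was called in 7 of 22 alternatives (adjusted p from 4.3e-05 to 0.314), not with round as replicate block (0.0737), without any single WT library (0.0809 to 0.112) or without KO 44A (0.102) or KO 44B (0.0985). *ODC1* was called in 12 of 22 (7.9e-04 to 0.168), not without KO 44A, KO 44B, WT 4B or WT 6B, and *CAD* in 11 of 22 (0.0031 to 0.266), not without KO 44A, KO 44B, KO 47A, WT 4B, WT 6A or WT 6B. *PPAT* was called in 19 of 22 (6.6e-04 to 0.139), not without clone KO 44 or WT 6. In HT29 0 of 24 were called by limma, where 2.56% of all genes were called. An unadjusted p under 0.05 was found for 5 of the 24 and for 2417 of all 14921 tested genes. The median was -0.22 against 0.03 over all genes. *ODC1* there split by KO clone, with 15348 and 16078 in KO 28 and 36689 and 44446 in KO 38 against 20881 to 31313 in WT libraries.

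Among 9 cofactors through which MYC activates, 5 were lower in SW480 KO clones and 0 higher, where 48.1% of all genes were called in either direction, led by *TRRAP* (-0.51, adjusted p = 0.0142) and *WDR5* (-0.44, adjusted p = 2.7e-04), and 1 was lower in HCT116, *RUVBL1* (-0.35, adjusted p = 0.0480), which was called in 8 of 22 alternatives (0.0152 to 0.246) and of single libraries kept its call only without WT 4B. *TRRAP* lost its call without clone WT 4 (0.0773) or WT 5 (0.0669), within a range up to 0.119. Among 9 genes of MYC protein turnover, 3 were lower in SW480 (*USP28*, *SKP2* and *USP36*) and 1 in HCT116 (*SKP2*, -0.66, adjusted p = 0.0055). *SKP2* encodes a ubiquitin ligase subunit that acts on MYC, and its SW480 call was made in 8 of 22 alternatives (5.1e-04 to 0.314), not without KO 21A, KO 21B or any single WT library. *USP36* lost its call without WT 4A, WT 4B or WT 5B (15 of 22 alternatives called, up to 0.168). These shares of 3 in 9 and 1 in 9 were below the 48.1% and 14.0% of all genes. In HT29 0 of these 18 genes were called by limma, where 2.56% of all genes were called. Of the 18, 3 genes, all of turnover, had an unadjusted p under 0.05, as did 2417 of all 14921 tested genes.

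Of 6 corepressors that MXD proteins recruit, 2 were called in SW480, 1 in HCT116 and 0 in HT29. Of all genes 48.1%, 14.0% and 2.56% were called there. Called changes of corepressors were small, with 1 exception, while uncalled ones reached -0.62 for *SIN3A* in HT29 (limma adjusted p = 0.349). *SIN3B* rose in SW480 from 1305, 1300, 1316 and 1314 normalized counts in WT to 2516, 2442, 2609 and 2688 in KO libraries, a narrow range in each group (log2 fold change 0.97, SE 0.06, adjusted p = 4.6e-07). *HDAC1* was higher in SW480 (0.32, adjusted p = 0.0026) and HCT116 (0.33, adjusted p = 0.0198, called in 15 of 22 alternatives with a range up to 0.246, not without WT 6A), and the other 4 of 6 corepressors were not called in any line. In SW480 the antagonist *MXD4* and the corepressor *SIN3B* were thus higher while *MXD1* and *MNT* were lower.

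Of 5 genes that MYC represses, 2 were higher and 1 lower in SW480 KO clones. Of all tested genes 26.1% were higher and 22.1% lower. *CDKN2B*, which encodes the cell cycle inhibitor p15, was higher (406 to 491 in WT and 1840 to 2721 in KO libraries, log2 fold change 2.31, adjusted p = 4.5e-07). *GADD45A* was higher too (0.77, adjusted p = 1.2e-04), whereas *NDRG1* was lower (-0.72, adjusted p = 0.0027). The paper reports slower growth of the KO clones of HT29, HCT116 and SW480. It proposes a delay from G1 to S phase in HT29 and HCT116 and found no defined cell cycle block in SW480. Only the SW480 KO clones turned senescent in long culture. The part of growth and senescence in the levels was not tested. In HT29 the largest log2 fold changes were 3.60 for *NDRG1* (SE 0.83, adjusted p = 0.0629) and 1.45 for *CDKN1A* (SE 0.35, adjusted p = 0.0698). Limma called 0 of 5 genes, where it called 2.56% of all genes. An unadjusted p under 0.05 was found for 3 of the 5 and for 2417 of all 14921 tested genes. DESeq2 and edgeR with TMM called *NDRG1* (adjusted p = 1.4e-06 and 0.0480, range over alternatives up to 0.543) there, and DESeq2 *CDKN1A* (0.0062, range up to 0.790). In HCT116 limma called 0 of 5 too, where 14.0% of all genes were called, and 0 had an unadjusted p under 0.05. DESeq2 called *CDKN2B* there (adjusted p = 0.0339, range over alternatives 0.0021 to 0.935).

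Of the lists around the network, that of targets of MLX and its glucose-sensing partners held the only gene called in HT29, with a call that few alternatives made. The call was 1 of 2 tested genes, where 2.56% of all genes were called. *TXNIP*, which encodes an inhibitor of glucose uptake, was at 3217, 2149, 2503 and 1975 normalized counts in HT29 WT and at 9275 and 7456 (KO 28) and 4584 and 4182 (KO 38) in KO libraries (log2 fold change 1.32, SE 0.28, adjusted p = 0.0473). All KO libraries lay above all WT libraries, but the call was made in 5 of 23 alternatives (adjusted p from 7.1e-04 with DESeq2 to 0.763 with reads summed per clone). It was lost without KO 38B and WT 40B (0.0669) and without any single library but KO 38B (0.0722 to 0.132). *TXNIP* was also higher in SW480 KO clones (0.96, adjusted p = 5.3e-04), and in HCT116 it was not tested because it stayed below 10 normalized counts in each library. *ARRDC4*, the second target, was not called in any line by limma (1.35 in HT29, adjusted p = 0.111, and 0.0274 with DESeq2, the lowest of a range up to 0.843).

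**Figure D5:**
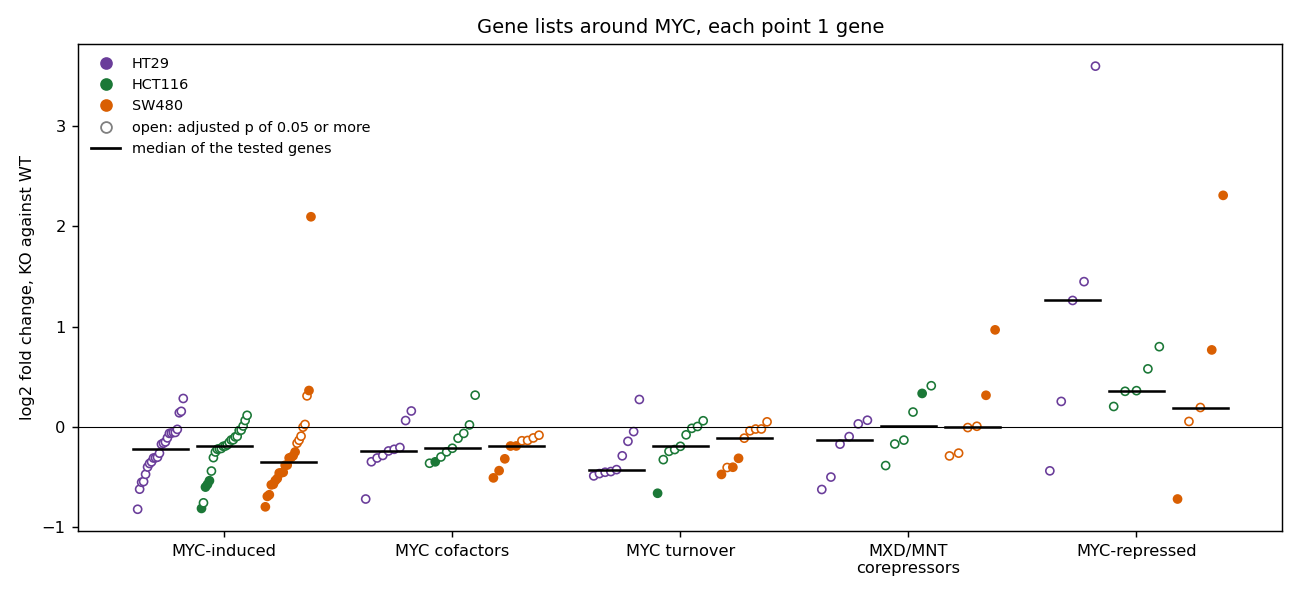
Log2 fold change of KO against WT for each tested gene of 5 lists around MYC in the 3 lines, with filled points for an adjusted p under 0.05 and black bars for the median. In SW480 16 MYC-induced genes are lower and called, and in HT29 all points are open.

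The genes whose pattern over the 24 libraries, centred within each line, was most like that of a member were sought among 11419 genes. For *MYC* they were *DDX52*, *COX10* and *PPFIBP1* (Pearson r from 0.880 to 0.883), for *MXD4* they were *RAB13*, *PROCR* and *LACTB* (0.879 to 0.901), and for *MAX* they were *ENPP5*, *MFSD1* and *UFM1* (0.861 to 0.909). The points share clones, rounds and size factors, and the correlations are descriptions.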

How the data were processed

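RNA-seq of 24 libraries was used (TruSeq RNA v2, paired-end). Per the labels and methods, the authors aligned reads to GRCh37 with STAR 2.7.5b, counted reads per gene with featureCounts 2.0.1 and ran DESeq2 2.11.40.6. The deposited values are signal, namely the count of a gene over the size factor of its library. The strand setting and annotation release are not given in the sources used here. Deposited tables of the authors' own comparisons per line hold fold changes and p-values and were not used.

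Whole reads were recovered from the smallest step of each library (100% of values whole within 0.01 reads) for the count tests used as alternatives. As values are not plain counts, the main test was limma 3.58.1 (R 4.3.3, trend, robust) on log2 of the value plus 1, for genes with at least 10 in at least 4 libraries, with Benjamini-Hochberg adjustment over all tested genes. It was also run on simulated libraries that were drawn independently of each other. That run cannot show how rounds of a shared clone affect its error. Alternatives included edgeR 4.0.16, DESeq2 1.42.0, reads summed per clone, clone as random effect, round as replicate block and libraries or clones left out. Leaving out KO 38B with WT 40B, and the alternatives for named genes of other lists, were chosen after seeing the data. The study describes the rounds as independent replicates, and p-values over libraries treat the rounds of 1 clone as separate samples.

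Same-round libraries deviated together in HCT116 (correlations of 0.182 to 0.374, 6 of 6 pairs over 0.1), but not in HT29 (-0.309 to 0.424) or SW480 (-0.041 to 0.127). All 10 members are named, and of other lists up to 4 called genes per line with the largest change. *LDHA*, *EIF4A1*, *CDKN1A*, *ARRDC4* and *MLXIPL*, and *NDRG1*, *ODC1* and *SIN3A* in HT29, were named after their values were seen. Members and lists were chosen with earlier results of these data known. Of 70 list genes 69 matched. Floors of 3 reads cover counting error only. Figures were drawn with matplotlib 3.10.9.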

Additional observations from a re-analysis of the deposited data

Results flagged for a closer look

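The KO effect differed between lines by a test of the difference itself for 4 members, which is 1, 2 and 2 of 9 where 7.25%, 15.8% and 13.2% of all genes were called between HT29 and HCT116, HT29 and SW480, and HCT116 and SW480. The log2 differences were 0.72 for *MYC* between HT29 and SW480 (adjusted p = 0.0177), 1.36 (adjusted p = 0.0404) and 2.43 (adjusted p = 1.4e-04) for *MYCL* between HT29 and HCT116 and between HT29 and SW480, and 1.42 for *MXD1* (adjusted p = 0.0351) and -1.63 for *MXD4* (adjusted p = 0.0090) between HCT116 and SW480. The call of *MYCL* between HT29 and HCT116 and that of *MXD1* were each made in 18 of 31 alternatives.

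A library stood far from the other 3 of its group in 7 of 73 groups, where chance gives about 1 in 20. In HT29 KO 38B *MXD3* was at 1026 normalized counts against 336 to 434 in the other KO libraries, and *MLX* at 2509 against 3652 to 3752. In HCT116 WT the values were 128 for *MXD1* in WT 4A (others 142 to 144), 261 for *MXD3* (340 to 355) and 1237 for *MXI1* (1001 to 1033) in WT 6A, and 1564 for *MLX* in WT 6B (1968 to 2043). *MLXIP* was at 2343 in HT29 WT 11A (1913 to 1964).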

How the results depend on the processing

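The counts of members called between KO and WT kept to 0 in HT29 and to 4 to 6 in SW480 under all alternatives run. In HCT116 the count of 1 became 3 with DESeq2, 0 with the reads of a clone summed or clone as random effect, 2 without clone KO 47 or WT 4, 0 without clone WT 6, and 0 to 2 with single libraries left out. Of the differences between KO effects, that between HT29 and HCT116 (1 called) became 0 without a filter, with edgeR and TMM or with clone sums, and 0 to 1 with single libraries left out, that between HT29 and SW480 (2) became 1 with clone sums, and that between HCT116 and SW480 (2) became 0 with clone sums and 1 to 2 with single libraries left out. WT levels between HT29 and SW480 (6) gave 3 calls with clone sums, and WT 6 against WT 4 of HCT116 (2) gave 1 with edgeR and TMM (*MYC* at an adjusted p of 0.0611). With round as replicate block KO 47 against KO 44 of HCT116 gave 3 calls in place of 1, and SW480 KO against WT gave 5 in place of 6, since *MAX* was lost (adjusted p = 0.0516). In HCT116 KO against WT the block gave 1 call, *MLX* in place of *MYC*. The block also ended the call of *MXI1* between HT29 and SW480 WT (adjusted p = 0.0545). The causes were not tested. Summing a clone leaves 2 values per group. Of 4297 values of single genes under alternatives, 194 lost and 53 gained a call, none with a changed sign, and 97 without a call in either analysis changed sign.

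Depth limited *MYCN*, with at most 5 reads, and *MYCL*, with 37 to 265 reads per library. RNA levels do not give protein levels, and the read share of exons shared with neighbours was not known for *MXD3*, *MLX* and *MAX*. With 2 clones per genotype, what a clone acquired and what the KO caused cannot be told apart where the clones differ.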
